A study of Mus musculus with 16 samples.

Results

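The canonical histone genes supply the proteins around which DNA is wrapped. They were taken here as every gene row whose symbol starts with Hist1h, Hist2h, Hist3h or Hist4h, which gave 67 of 32285 genes. Of these, 61 encode core histones (18 H2A, 18 H2B, 12 H3 and 13 H4), which form the nucleosome, and 6 encode H1 linker histones, which bind the DNA where it enters and leaves the nucleosome. In the tagged cultures, 65 of the 67 genes had at least 1 unique molecular identifier (UMI, 1 count per captured RNA molecule), and Hist1h2aa and Hist1h2ba had none. Together the members held 447373 of 321977561 UMIs, or 0.139%.

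The data are single-cell RNA-Seq counts of mouse bone marrow stromal cell cultures grown for 21 days in osteoblastic medium with 10 mM beta-glycerophosphate (bGP). Cells came from mice 12 weeks of age of 4 genotypes. WT cultures were Dmp1+/+ Fgf23 fl/fl without Cre, Fgf23cKO cultures were Dmp1+/+ Fgf23 fl/fl with Dmp1-cre, Dmp1KO cultures were Dmp1-/- Fgf23 fl/fl without Cre, and Dmp1KO/Fgf23cKO cultures were Dmp1-/- Fgf23 fl/fl with Dmp1-cre. Every group thus carried the floxed Fgf23 allele, and Dmp1-cre is known to act in osteocytes and mature osteoblasts, not in macrophages. Counts of 11 tagged cultures were compared, 3 each of WT, Fgf23cKO and Dmp1KO/Fgf23cKO and 2 of Dmp1KO (replicates 2 and 3). Each genotype was run in 1 droplet reaction, and in every comparison of genotypes below, the genotype and its reaction cannot be told apart. Depth also differed between genotypes, with a median of 7137 to 7275.5 UMIs per cell in WT cultures, 29752.5 to 34988 in Fgf23cKO, 20016.5 and 22186 in Dmp1KO and 32378 to 33881 in Dmp1KO/Fgf23cKO, and totals of 9518928 to 72482185 UMIs per culture. As a check of the labels, Dmp1 had 442 to 1770 UMIs per WT culture, 152 to 1177 per Fgf23cKO culture, 0 and 3 in the Dmp1KO cultures and 26 to 76 in the Dmp1KO/Fgf23cKO cultures. Fgf23 had 0 to 8 UMIs per culture and checked nothing at this depth.

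Histone genes of this kind are transcribed mainly in S phase, when DNA is copied and new nucleosomes are needed. Their mRNA is the known exception among metazoan mRNAs in that it ends at a short stem-loop in place of a poly(A) tail. The stem-loop binding protein, encoded by Slbp, holds this structure through processing, export and translation, and the message is destroyed when DNA synthesis stops. Some histone genes also give polyadenylated transcripts from a site further downstream, which do not depend on the cell cycle and are known from resting and differentiated cells. The libraries were primed on A-rich sequence at the 3' end of RNA, so they read the polyadenylated form and whatever part of the stem-loop form the priming reaches. The counts do not say which of these forms a UMI came from.

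The stem-loop is shown for 8 members on which the results turn, since it is the sequence by which the 2 kinds of 3' end differ. Each window was read from the GENCODE M21 transcript models (GRCm38) and runs 5' to 3' on the gene's strand. Capitals mark the 2 arms of the stem and the loop between them, and lower case marks flanking bases.
Hist1h2ap: aaaaGGCTCTTTTCAGAGCCatc
Hist1h3b: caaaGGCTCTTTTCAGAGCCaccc
Hist1h3c: aaaaGGCTCTTTTAAGAGCCacct
Hist1h4d: caaaGGCCCTTTTCAGGGCCacta
Hist1h4i: taaaGGCCCTTTTTAGGGCCacca
Hist1h1c: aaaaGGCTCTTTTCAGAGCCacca
Hist1h1e: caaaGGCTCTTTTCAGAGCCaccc
Hist3h2a: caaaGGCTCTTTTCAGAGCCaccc

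These windows lie in the 3' UTR at chr13:21833026-21833048 (- strand) for Hist1h2ap, chr13:23752816-23752839 (+) for Hist1h3b, chr13:23745043-23745066 (-) for Hist1h3c, chr13:23581946-23581969 (+) for Hist1h4d, chr13:22040962-22040985 (-) for Hist1h4i, chr13:23739508-23739531 (+) for Hist1h1c, chr13:23621778-23621801 (-) for Hist1h1e and chr11:58955168-58955191 (+) for Hist3h2a. What differs most is how far the annotated transcript goes on past the window. The Hist1h2ap model ends 3 bases after it, the Hist1h3b model 51 and the Hist1h3c model 74 bases after it. The Hist1h4i model continues for 330 bases, Hist1h4d for 770, Hist1h1c for 840, Hist1h1e for 1153 and Hist3h2a for 1643.

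A stem of 6 bases closed by a loop of 4 bases was found in the models of 44 of the 67 members, in 6 forms. The stem GGCTCT was found with the loop TTTC in 26 members, with TTTA in 6 and with TTTT in 1, none of them H4 genes. The H4 genes had the stem GGCCCT with the loop TTTC in 7 members and with TTTT in 2, or the stem GGTCCT with the loop TTTC in 2. Sorted by the annotated 3' end, 22 members ended by the stem-loop, 22 extended past it, 15 had models that stop at the stop codon and 8 had a 3' UTR without a match. Hist1h2bc (chr13:23684199-23692908, + strand) belongs to the last group, with 2 exons and a 3' UTR of 742 bases.

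The members sit in clusters. On chromosome 13, 54 lie between 21715763 and 23934851, on chromosome 3 there are 10, on chromosome 11 there are 2, and on chromosome 6 there is 1. Near-identical copies limit what a UMI can be assigned to. Of all 90-base stretches in the last 300 bases of each transcript model, 40 of 67 members shared some with another member and 26 shared over 50%. All such stretches were shared for Hist1h2ap, Hist2h2aa1, Hist1h3e and Hist1h3f among others, so their counts are uncertain against their copies, whereas none were shared for the linker genes, Hist1h2bc, Hist1h4d and Hist1h4i.

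Cells were grouped without use of the histone genes, their variants or the histone processing and chaperone lists, so the members did not choose the cells. Of 14577 tagged cells, 650 were S-phase-like and 560 G2/M-like, both from 2 cycling clusters divided at 1960 CPM (UMI counts scaled to the same total in each cell or class) of a list of 39 S-phase genes. A further 9934 were resting macrophage-like and 914 were resting stromal cells, named from markers of the osteoblast lineage. Cells with more than 4436 CPM of the S-phase and G2/M lists together were left out of both resting classes. Unnamed, osteoclast-like and mitochondrial clusters were in no class, with 648 tagged cells of WT, 394 of Fgf23cKO, 981 of Dmp1KO and 382 of Dmp1KO/Fgf23cKO. Near the division between phases lay 274 cycling cells within 0.5 on the log2 scale, so the phases are ranges rather than types. Mki67 and Top2a, markers of proliferation, were 5.24 and 6.80 higher on the log2 scale in S-phase-like than in resting macrophage-like cells. The replication genes Pcna and Mcm5 were 2.24 and 4.08 higher. These genes are on the S-phase and G2/M lists by which the cells were chosen, so their rise was set by the grouping. The cycling cells were of the macrophage kind, with Csf1r, the receptor for macrophage colony-stimulating factor, detected in 98.5% of S-phase-like, 98.4% of G2/M-like and 97.6% of resting macrophage-like cells. The stromal class was not free of macrophage RNA. The summed level of 36 macrophage markers was 3616 to 10320 CPM there against 47880 to 58015 CPM in resting macrophage-like cells, and Csf1r had a UMI in 50.5% of stromal cells. In the other direction, 35 stromal markers summed to 200 to 555 CPM in resting macrophage-like and 38663 to 123591 CPM in resting stromal cells. Of the barcodes, 35 were shared by samples.

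Histone RNA was the mark of S-phase-like cells. Summed over all members, the level was 5445 to 9676 CPM in S-phase-like cells of the 11 cultures (median 7276) against 682 to 1091 CPM in resting macrophage-like cells of the same cultures, and the classes did not overlap. The ratio within a culture was 7.27 to 10.4 (mean 8.72 ± 1.01, SD, n = 11). By family, the mean ratio was 20.2 ± 3.77 for H2A, 18.0 ± 4.26 for H3, 6.53 ± 0.942 for H4, 1.76 ± 0.615 for H2B and 7.12 ± 0.668 for the linker histones (SD, n = 11). The summed core level thus rose by 9.40 ± 1.21 times and the linker level by less, and the share of linker UMIs among member UMIs was 21.0 to 27.9% in S-phase-like and 24.3 to 35.1% in resting macrophage-like cells. The small ratio of the H2B family went with a single gene, Hist1h2bc, which is described further on.

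Gene by gene, 53 of the 67 members passed the filter on low counts and 46 rose and 5 fell in S-phase-like compared with resting macrophage-like cells (edgeR quasi-likelihood test with the culture as a block, adjusted p under 0.1). In this comparison 34.1% of 11264 genes tested were called higher and 37.2% lower. Members near 0 at rest, such as Hist1h3b, Hist1h2af, Hist1h2ah, Hist1h3g and Hist1h4j, could pass the filter only by being high in S-phase-like cells. The counts below therefore describe the tested members and support nothing on their own. The same holds for the fold changes of such members. The 14 untested members are not shown to be unchanged. Of core genes, 13 of 14 tested H2A, 11 of 13 H2B, 10 of 12 H3 and 8 of 9 H4 genes rose. Of the linker genes, 4 of 5 tested rose and 1 fell.

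**Figure D1:**
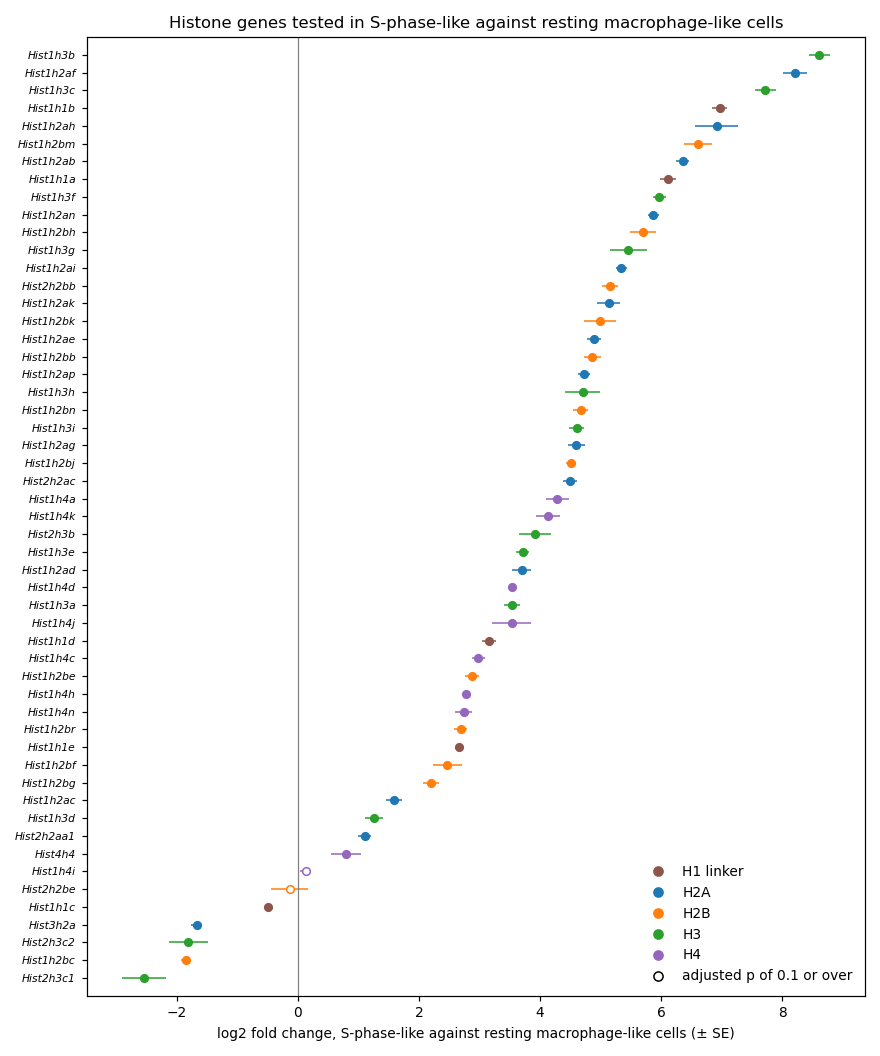
Log2 fold change (x axis, ± SE) of the 53 tested histone genes (y axis, 1 row each) in S-phase-like against resting macrophage-like cells, coloured by family, with open points at an adjusted p of 0.1 or over. Points to the right of 0 are higher in S-phase-like cells, and 46 filled points lie right and 5 left of it, from 8.61 for Hist1h3b to -2.54 for Hist2h3c1.

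Hist1h3b, a canonical H3 gene, had the largest fitted change. It was at 48.9 to 111 CPM in S-phase-like cells (median 63.9) and at 0 to 0.381 CPM in resting macrophage-like cells. The log2 fold change was 8.61 (SE 0.17), for a gene that passed the filter through its S-phase-like counts. Hist1h3c, also H3, followed the same course with 77.5 to 308 CPM against 0.0909 to 1.33 CPM and a log2 fold change of 7.72 (SE 0.17). Both genes were close to absent outside the cycle, in macrophage-like and in stromal cells alike. The H2A gene Hist1h2af rose by 8.20 on the log2 scale (SE 0.20). The order of Hist1h3b and Hist1h2af rests on 3 to 20 and 6 to 10 resting UMIs per genotype, and in Dmp1KO the ratio of S-phase-like to resting level was larger for Hist1h2af (329) than for Hist1h3b (241).

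The H2A gene Hist1h2ap supplied more UMIs than any other member, 106035 in all. It was at 1294 to 3434 CPM in S-phase-like cells (median 2496), 216 to 1226 CPM in G2/M-like cells, 42.5 to 164 CPM in resting macrophage-like cells and 7.56 to 49.1 CPM in stromal cells. The S-phase-like and resting groups did not overlap, and the log2 fold change was 4.73 (SE 0.10). Its share of the member UMIs fell from 22.3 to 44.6% in S-phase-like cells to 6.23 to 19.9% in resting macrophage-like and 0.897 to 6.31% in stromal cells. Without it, the members still summed to 3542 to 6823 CPM in S-phase-like and 640 to 950.5 CPM in resting macrophage-like cells. The H2A genes Hist1h2ae, Hist2h2ac and Hist1h2ab had log2 fold changes of 4.89, 4.49 and 6.35.

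The linker genes divided by their behaviour in the cycle. Hist1h1b rose from 5.53 to 15.9 CPM in resting macrophage-like cells to 649 to 1480 CPM in S-phase-like cells, a log2 fold change of 6.97 (SE 0.12, adjusted p = 3.84e-20). Hist1h1a, at 0.476 to 2.19 CPM at rest and 34.7 to 87.7 CPM in S-phase-like cells, rose by 6.11 (SE 0.13). Hist1h1d and Hist1h1e rose by 3.16 (SE 0.12) and 2.66 (SE 0.05) from higher resting levels, Hist1h1e from 47.1 to 86.2 CPM up to 288 to 492 CPM. Hist1h1c, a linker histone known from resting and differentiated cells, did not rise in CPM. It was at 120 to 208 CPM in resting macrophage-like and 72.0 to 151 CPM in S-phase-like cells, ranges that overlap between cultures. Its CPM fell by 0.50 on the log2 scale within cultures (SE 0.05, adjusted p = 9.6e-08). In UMIs per cell it was not lower, with 1.09, 8.03, 4.16 and 8.09 in S-phase-like cells of WT, Fgf23cKO, Dmp1KO and Dmp1KO/Fgf23cKO. Resting macrophage-like cells, which held fewer UMIs in all, had 1.01, 6.71, 2.81 and 7.15 in this order. Hist1h1t, the testis linker histone, had no UMI in S-phase-like cells of any culture and at most 2.29 CPM in any other class.

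Besides Hist1h1c, 4 core genes fell in S-phase-like cells. Hist1h2bc was at 41.5 to 97.1 CPM in S-phase-like, 81.8 to 255 CPM in G2/M-like, 193 to 307 CPM in resting macrophage-like and 331 to 487 CPM in stromal cells, so the order of the classes was the reverse of that of Hist1h2ap. Its log2 fold change in S-phase-like against resting macrophage-like cells was -1.85 (SE 0.07, adjusted p = 1.29e-14), with no overlap between the groups. Hist3h2a, an H2A gene on chromosome 11, was at 7.16 to 16.7 CPM against 27.0 to 46.1 CPM (log2 fold change -1.67, SE 0.09, adjusted p = 1.19e-12). The H3 genes Hist2h3c1 and Hist2h3c2 fell by 2.54 (SE 0.36, adjusted p = 4.23e-06) and by 1.81 (SE 0.32, adjusted p = 5.7e-05) on the log2 scale. The H4 gene Hist1h4i had a log2 fold change of 0.13 (SE 0.09, adjusted p = 0.236) and the H2B gene Hist2h2be one of -0.13 (SE 0.30, adjusted p = 0.717), both short of the threshold.

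**Figure D2:**
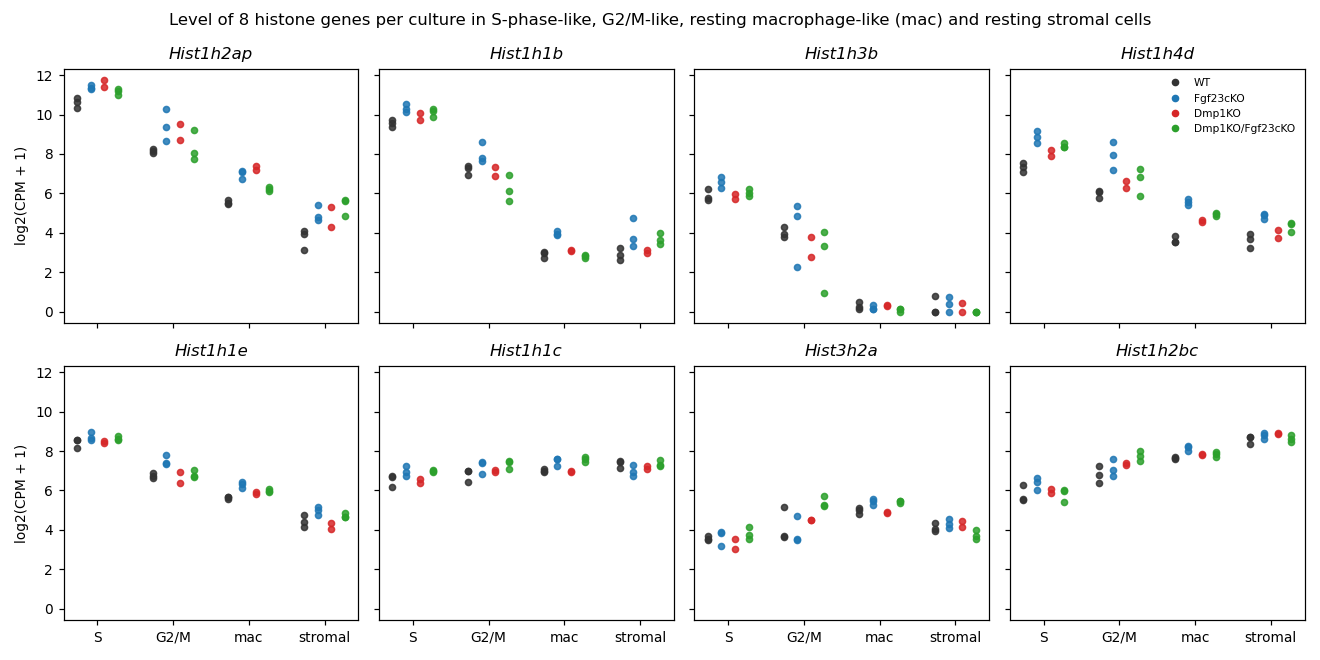
Level of 8 histone genes as log2(CPM + 1) (y axis) in S-phase-like (S), G2/M-like (G2/M), resting macrophage-like (mac) and resting stromal cells (x axis), 1 point per culture, coloured by genotype. For Hist1h2ap, Hist1h1b, Hist1h3b and Hist1h1e the S-phase-like cells are highest in each culture, as for Hist1h4d in all but Fgf23cKO replicate 1, whereas Hist1h2bc is lowest there and highest in stromal cells (331 to 487 CPM) and Hist1h1c changes little.

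The annotated 3' end was not used to group the cells. Of the 5 members that fell, Hist1h1c, Hist3h2a, Hist2h3c1 and Hist2h3c2 extend past the stem-loop and Hist1h2bc has a 3' UTR without a match. Their longest annotated 3' UTRs are 880, 1700, 1213, 423 and 742 bases in this order. None of the 5 is annotated to end by the stem-loop or at the stop codon. Long 3' UTRs also occur among members that rose, such as Hist1h1e with 1209 and Hist1h1d with 4931 bases. The 22 members whose annotated transcript ends by the stem-loop had a median ratio of pooled S-phase-like to resting macrophage-like CPM of 15.2. Of these, 1 was lower in S-phase-like cells, the untested Hist2h2aa2 with 29 UMIs in the tagged cultures. The 22 members that extend past the stem-loop had a median ratio of 3.77. Of these, 5 were lower, among them the untested Hist1h1t with 16 UMIs. The 15 members annotated only to the stop codon had a median ratio of 33.5 over the 13 with counts in both classes, and none was lower. Among the 8 members with a 3' UTR and no match, the median was 9.96 and 2 were lower, Hist1h2bc and Hist2h2be, the latter not called. Summed CPM in S-phase-like, resting macrophage-like and stromal cells was 3534, 171 and 97.0 for members that end by the stem-loop. It was 1977, 394 and 309 for members that extend past it, and 190, 242 and 431 for those without a match, of which Hist1h2bc gave 65.2 in S-phase-like and 234 in resting macrophage-like cells. These values describe the annotation and the counts side by side, and no test was made of the difference between the groups of members.

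H2A and H2B genes often start back to back. Of 12 such pairs with starts within 400 bases, 2 had an H2B gene that was lower in S-phase-like cells by pooled CPM (Hist1h2bc and Hist2h2be), and none had an H2A gene that was. The sharpest case was Hist1h2ac and Hist1h2bc, whose starts are 251 bases apart. In the same cells Hist1h2ac rose in S-phase-like cells, from 7.29 to 19.7 CPM in the pooled classes, and Hist1h2bc fell from 234 to 65.2 CPM. The stretch between them is shown because the pair shares it and moves in opposite directions. It is the RefSeq upstream sequence of Hist1h2ac (GRCm38.p6, chr13:23683960-23684209, - strand), with the octamer in capitals.
Hist1h2ac upstream: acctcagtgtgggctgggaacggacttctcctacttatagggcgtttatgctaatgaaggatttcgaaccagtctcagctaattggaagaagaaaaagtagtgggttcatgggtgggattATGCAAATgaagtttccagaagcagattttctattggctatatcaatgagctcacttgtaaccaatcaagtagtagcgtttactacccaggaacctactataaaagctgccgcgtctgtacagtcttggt

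The octamer, ATTTGCAT or its reverse complement ATGCAAAT, is the sequence that Oct-1 is known to bind in H2B promoters. Searched on both strands in the 300 bases around each start, it was found in 7 of 18 H2A and 7 of 17 H2B promoters and in none of the H1, H3 or H4 promoters, which is 22.2% of 63 member promoters (62 genes) against 1.74% of 32851 promoters. TATAAA was found in 55.6% of member promoters and 13.6% of all. CCAAT, the site of the factor NF-Y, was found in 85.7% against 37.4%, in all H1, H2A, H2B and H3 promoters and in 25% of the H4 promoters. A match is a description of these letters and not a site in use. The motifs can overlap at their ends, and each was counted whether or not another overlapped it.

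In G2/M-like cells, histone RNA was lower than in S-phase-like and higher than in resting cells. The members summed to 1271 to 4126 CPM, 1.62 to 3.78 times the resting macrophage-like level of the same culture. Against resting macrophage-like cells, 39 members were tested, 33 rose and 6 fell, where 28.9% of all genes rose and 31.2% fell. The largest remaining rise was that of Hist1h3c (log2 fold change 5.77). Hist1h1b was 4.10 and Hist1h2ap 2.26 higher on the log2 scale, whereas Hist1h2bc was 0.62 and Hist2h3c1 1.54 lower. Comparing the phases directly, 36 of 41 tested members were higher and 4 lower in S-phase-like cells, where 23.6% of all genes were higher and 26.4% lower. Hist1h1a differed most (log2 fold change 3.44, SE 0.15), with 34.7 to 87.7 CPM in S-phase-like and 1.80 to 10.8 CPM in G2/M-like cells. Hist1h2bc was already higher in G2/M-like than in S-phase-like cells (log2 fold change -1.27 for S-phase-like against G2/M-like, SE 0.13, adjusted p = 3.33e-08).

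Ordered along the cycle, the rise was sharp. Cycling cells were placed in 8 bins of 151 or 152 cells from the highest to the lowest ratio of the S-phase list to the G2/M list. The summed member level was 1505 CPM in the first bin, where the S-phase list was already at 4796 CPM, then 7110 and 10049 CPM in bins 2 and 3, and declined over the rest to 7609, 4315, 3524, 2560 and 1365 CPM. Slbp, which encodes the protein that binds the stem-loop, was at 131, 154 and 143 CPM in the first 3 bins and at 72.8 CPM in the fourth, and fell to 15.4 CPM in the last. Hist1h2bc was at 61.6 to 84.8 CPM in the first 4 bins and 137 to 158 CPM in the others. Single cells varied widely: the median S-phase-like cell had 6411 CPM of member UMIs, and 16.5% of them had less than 1000 CPM.

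**Figure D3:**
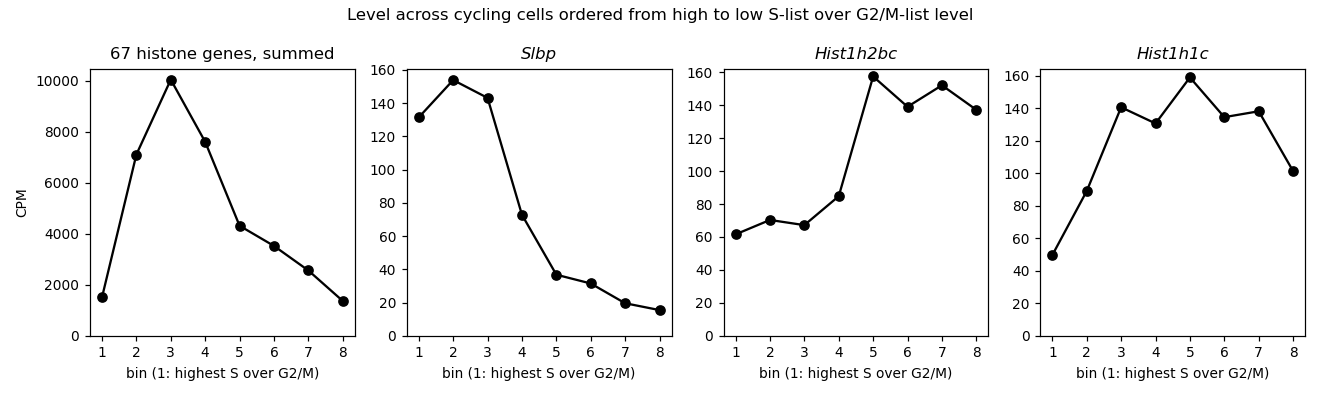
Pooled level in CPM (y axes, from 0) of the 67 histone genes summed, of Slbp, of Hist1h2bc and of Hist1h1c in 8 bins of cycling cells (x axis), from the highest to the lowest ratio of S-phase list to G2/M list. The summed level peaks at 10049 CPM in bin 3, Slbp is highest in bins 1 to 3, and Hist1h2bc steps up at bin 5.

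The genes around histone supply moved as follows in S-phase-like against resting macrophage-like cells. Of 14 genes of histone mRNA transcription and 3' end processing, 13 were tested, 8 rose and 1 fell. Slbp rose by 2.21, Eri1, an exonuclease that trims histone mRNA, by 1.77 and Casp8ap2, needed for histone transcription, by 1.41 on the log2 scale, and Lsm10, a subunit of the U7 particle that takes part in cleavage, fell by 0.62. In G2/M-like cells Slbp was below the resting level (log2 fold change -0.39, SE 0.10, adjusted p = 0.00232). Of 16 histone chaperone and assembly genes, 15 rose and 1 fell. Asf1b, Chaf1a and Chaf1b, which pass new H3 and H4 to replicating DNA, rose by 4.93, 3.76 and 3.12, and Daxx, a chaperone of the replacement histone H3.3, fell by 0.18. Of 10 replication-independent variants, 8 were tested, 6 rose and 2 fell. H2afx, the variant phosphorylated at DNA breaks, rose by 3.96, H2afv by 1.99 and H2afz by 1.61, whereas H2afj and the replacement linker histone H1f0 fell by 0.43 and 0.37. The verbs here refer to calls at an adjusted p under 0.1, as above.

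Resting cells kept a histone RNA signal with another composition. Resting macrophage-like cells had 682 to 1091 CPM (mean 828 ± 134, SD, n = 11) and resting stromal cells 749 to 935 CPM (847 ± 66.7), and the ratio of stromal to macrophage-like level was 0.751 to 1.26 within a culture. Of the member UMIs, Hist1h2bc held 27.6 to 29.7% in resting macrophage-like and 44.1 to 54.4% in stromal cells, against 0.609 to 1.10% in S-phase-like cells. Hist1h2bc and Hist1h1c together held 42.7 to 54.9% and 59.9 to 72.1% in the resting classes against 1.79 to 3.03% in S-phase-like cells. H2A UMIs, 50.1 to 63.1% of the member UMIs in S-phase-like cells, were 19.9 to 34.3% in resting macrophage-like and 6.68 to 13.4% in stromal cells. UMIs count captured molecules, and capture can differ between genes, so these are shares of UMIs and not of RNA.

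Pooled over genotypes, the summed residual level did not rise steadily with the S-phase list among resting macrophage-like cells. Hist1h2bc and Hist1h1c, which fall in CPM in S-phase-like cells, held 42.7 to 54.9% of the member UMIs in this class. The sum therefore does not show whether members that rise in S phase follow the list. Genotypes, which differ in depth, were not separated here. In resting macrophage-like cells with under 500 CPM of the S-phase list the members were at 804 CPM, at 500 to 1000 CPM of the list they were at 881 CPM, at 1000 to 2000 CPM at 698 CPM and above 2000 CPM at 653 CPM. Free RNA in droplets can give any cell type some UMIs of genes it does not express. Col1a1, a collagen gene of osteoblasts, had a UMI in 45.0% of resting macrophage-like cells. The part of free RNA in the resting signal was not tested, and stromal values of S-phase members rest on few UMIs, such as 55 UMIs of Hist1h2ap in all WT stromal cells.

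Per cell, a member UMI was found in a mean of 99.3% of S-phase-like, 97.6% of G2/M-like, 97.6% of resting macrophage-like and 89.2% of stromal cells over the 11 cultures. After thinning each cell to 1300 UMIs, which left out shallower cells, the shares were 89.9, 69.1, 58.7 and 59.5%. Thinned shares with a Hist1h2bc UMI in WT were 6.52% of S-phase-like, 20.8% of resting macrophage-like and 39.6% of stromal cells, and those with a Hist1h2ap UMI were 62.6, 4.89 and 0.784%. The shares before thinning carry the median depth of the class, 37062 UMIs in S-phase-like, 16905 in resting macrophage-like and 13615.5 in stromal cells. The WT shares pool the cells of all WT cultures and are given without a spread between cultures.

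Compared directly, resting stromal and resting macrophage-like cells differed in 22 of 25 tested members, of which 6 were higher and 16 lower in stromal cells, where 41.6% of all genes were higher and 42.4% lower. The share of called members was thus near that of all genes. Higher in stromal cells were Hist2h3c2 (log2 fold change 1.19, SE 0.16), Hist1h4h (1.15, SE 0.18), Hist1h2bc (0.78, SE 0.07, adjusted p = 5.07e-08), Hist2h3c1 (0.51), Hist2h2aa1 (0.28) and Hist1h4i (0.20, adjusted p = 0.059). Without the filter on low counts the value of Hist1h4i was -0.0053 and no longer called. Lower in stromal cells were mainly members that rise in S phase, led by Hist2h2ac (-2.03), Hist1h2ap (-1.78, SE 0.21), Hist1h2bg (-1.69), Hist1h3e (-1.58), Hist1h2ae (-1.49) and Hist1h1e (-1.43, SE 0.09), and also Hist3h2a (-1.24). Hist1h1c had a log2 fold change of -0.13 (adjusted p = 0.287) and Hist1h1b of 0.24 (adjusted p = 0.258). The replication-independent variants went both ways. MacroH2A2 (H2afy2), H1fx, H2afx, H2afj and H1f0 were 4.37, 2.93, 0.66, 0.63 and 0.57 higher in stromal cells on the log2 scale. H2afz, H3f3b, H2afy and H3f3a had log2 fold changes of -1.10, -1.01, -0.61 and -0.39 and were called lower. H2afv was not called.

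Within the macrophage-like cells the residual level varied by cluster. It was 962 to 1443 CPM per culture in the cluster led by Lgals3, Gpnmb and Mmp12 and 1238 to 1733 CPM in the cluster led by Lgals3, Atp6v0d2 and Mmp12, against 398 to 799.7 CPM in the cluster led by Slc9a9 and Mrc1. Hist1h2bc went with it, at 220 to 426 CPM, 403 to 774 CPM and 58.3 to 204 CPM in these clusters. The cluster named osteoclast-like by its markers (138 tagged cells, led by Ctsk and Acp5) held 1909 CPM of member UMIs, with Hist1h1b at 168 CPM and Hist1h2bc at 219 CPM. No limit on the cycle lists was set in this cluster, so its value may include cycling cells and is not a resting level.

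Genotypes were then compared within S-phase-like cells, a question that bears on whether replication-coupled histone supply differed between the cultures. All WT cells came from the same cycling cluster, as did all but 2 cells each of Fgf23cKO and Dmp1KO/Fgf23cKO, while 185 of the 249 Dmp1KO cells came from a second cycling cluster. Cultures held 15 to 147 S-phase-like cells. The summed level was 6597 ± 1005 CPM in WT, 8337 ± 1160 in Fgf23cKO, 6993 ± 1002 in Dmp1KO and 6695 ± 564 in Dmp1KO/Fgf23cKO (SD, n = 3, 3, 2 and 3). The Fgf23cKO cultures (7646 to 9676 CPM) lay above all WT (5445 to 7289 CPM) and all Dmp1KO/Fgf23cKO cultures (6150 to 7276 CPM). They overlapped Dmp1KO (6284 and 7702 CPM), and the other genotypes overlapped one another. The sum was not tested.

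Below this sum the families moved apart. H2B summed to 606 ± 119 CPM in WT and 588 ± 143 in Fgf23cKO but 321 ± 40.5 in Dmp1KO and 325 ± 39.5 in Dmp1KO/Fgf23cKO. H3 summed to 655 ± 123 and 603 ± 157 CPM against 319 ± 36.5 and 395 ± 30.9 in the same order, and for both families all Dmp1-null cultures were below all others. H4 was at 504 ± 75.0 CPM in WT, 808 ± 158 in Fgf23cKO, 442 ± 62.2 in Dmp1KO and 504 ± 40.4 in Dmp1KO/Fgf23cKO. The linker histones were at 1408 ± 194, 2013 ± 292, 1536 ± 175 and 1812 ± 164 CPM. The linker share of member UMIs was 21.4 ± 0.415% in WT and 27.1 ± 0.736% in Dmp1KO/Fgf23cKO.

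**Figure D4:**
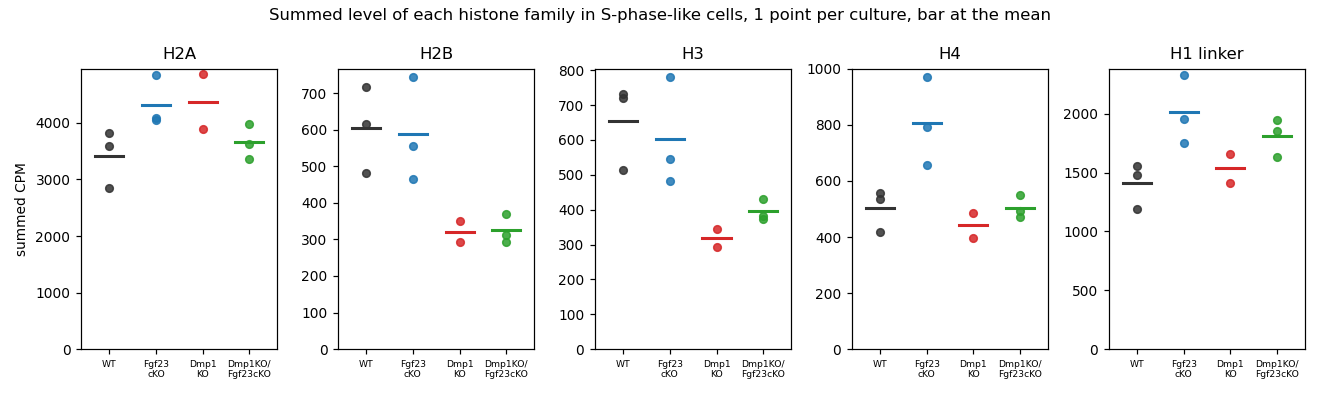
Summed level in CPM (y axes, from 0) of the H2A, H2B, H3, H4 and H1 linker genes in S-phase-like cells by genotype (x axes), 1 point per culture with a bar at the mean. In the H2B and H3 panels the 5 cultures of Dmp1KO and Dmp1KO/Fgf23cKO lie below the 6 cultures of WT and Fgf23cKO.

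In S-phase-like cells 56 members were tested. Against WT, 15 rose and 10 fell in Fgf23cKO, 4 rose and 30 fell in Dmp1KO, and 6 rose and 28 fell in Dmp1KO/Fgf23cKO. Of all 10257 genes, 20.8, 46.5 and 24.7% were called in either direction, against 44.6, 60.7 and 60.7% of the tested members. The median log2 fold change of the members was -0.05, -0.67 and -0.84, against 0.02, -0.04 and 0.03 over all genes. Between Dmp1KO/Fgf23cKO and Dmp1KO, 7 members were called (2 higher and 5 lower), 12.5% of the members against 39.8% of all genes. The 3 comparisons with WT share the WT cultures. Without the cycling cluster held by Dmp1KO, which leaves 64 Dmp1KO cells, 21 of 51 tested members were called in Dmp1KO (3 higher, 18 lower) and none between Dmp1KO/Fgf23cKO and Dmp1KO, and in Dmp1KO/Fgf23cKO against WT the count was 33 (6 higher, 27 lower). The H2B genes gave the most one-sided count, with 9 of 14 lower in Dmp1KO, 11 of 14 lower in Dmp1KO/Fgf23cKO and none higher in either, where Fgf23cKO had 2 higher and 2 lower.

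Called higher in all 3 knockout genotypes against WT were Hist1h2ap, Hist1h4d and the linker genes Hist1h1a and Hist1h1b. Hist1h2ap was at 1814, 1294 and 1574 CPM in the WT cultures, 2574, 2501 and 2853 CPM in Fgf23cKO, 2743 and 3434 CPM in Dmp1KO and 2496, 2331 and 2045 CPM in Dmp1KO/Fgf23cKO. All WT cultures were below all others, and the log2 fold changes were 0.78 (SE 0.11, adjusted p = 0.000128), 1.23 (SE 0.12, adjusted p = 2.9e-07) and 0.56 (SE 0.11, adjusted p = 0.00193). Hist1h1b was at 836, 649 and 758 CPM in WT, 1253, 1106 and 1480 CPM in Fgf23cKO, 857 and 1063 CPM in Dmp1KO and 1243, 1167 and 952 CPM in Dmp1KO/Fgf23cKO (log2 fold changes 0.80, 0.61 and 0.59 against WT). Without the cluster held by Dmp1KO the value of Hist1h1b in Dmp1KO was 0.37 (adjusted p = 0.0745), and that of Hist1h1a was 0.45 and no longer called (adjusted p = 0.204).

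Called lower in all 3 knockout genotypes were 9 members, among them Hist1h1d, Hist1h3i, Hist1h3c, Hist1h2ae and Hist1h4i. Hist1h1d fell where Hist1h1a and Hist1h1b rose, with 163, 145 and 193 CPM in WT, 100, 84.9 and 117 CPM in Fgf23cKO, 60.1 and 66.9 CPM in Dmp1KO and 78.1, 106 and 82.7 CPM in Dmp1KO/Fgf23cKO (log2 fold changes -0.71, -1.16 and -0.92). Hist1h3i, an H3 gene, was at 155, 103 and 153 CPM in WT, 44.7, 44.3 and 82.1 CPM in Fgf23cKO, 28.1 and 32.9 CPM in Dmp1KO and 36.4, 32.5 and 29.5 CPM in Dmp1KO/Fgf23cKO. WT cultures were highest for both genes without overlap, and the log2 fold changes of Hist1h3i were -1.23 (SE 0.21), -1.92 (SE 0.22) and -2.01 (SE 0.23).

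In resting macrophage-like cells the comparison asks whether the residual histone RNA of non-cycling cells differed between genotypes. The summed level was 697 ± 13.8 CPM in WT, 1006 ± 115 in Fgf23cKO, 811 ± 22.7 in Dmp1KO and 791 ± 34.8 in Dmp1KO/Fgf23cKO (SD, n = 3, 3, 2 and 3), and the WT cultures were below the others. The clusters behind these sums differed: 77.9% of WT cells were in the cluster led by Maf and Mrc1, 49.6% of Fgf23cKO and 77.3% of Dmp1KO/Fgf23cKO cells in that led by Slc9a9 and Mrc1, and Dmp1KO cells were spread over 4 clusters with 29.9, 20.8, 19.7 and 17.9%. Of 45 tested members, 17 rose and 7 fell in Fgf23cKO, 12 rose and 12 fell in Dmp1KO and 6 rose and 17 fell in Dmp1KO/Fgf23cKO against WT, and 4 were higher and 18 lower in Dmp1KO/Fgf23cKO than in Dmp1KO. Called members were 53.3, 53.3, 51.1 and 48.9% of those tested, against 48.3, 68.5, 54.8 and 65.6% of all 13388 genes, which is above the share of all genes for Fgf23cKO and below it for the other 3 comparisons. The difference in shares was not tested. The medians of the members were 0.20, 0.04, -0.27 and -0.28, against 0.01, 0.01, 0.00 and -0.05 over all genes.

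Hist1h2ap was called higher in all 3 knockout genotypes in macrophage-like cells too, at 49.9, 42.5 and 44.1 CPM in WT, 133, 104 and 140 CPM in Fgf23cKO, 164 and 147 CPM in Dmp1KO and 69.3, 72.6 and 79.0 CPM in Dmp1KO/Fgf23cKO. The 4 genotypes did not overlap, with WT lowest and Dmp1KO highest. Log2 fold changes against WT were 1.46 (SE 0.11, adjusted p = 2.56e-07), 1.998 (SE 0.11, adjusted p = 3.15e-09) and 0.64 (SE 0.11, adjusted p = 0.000213), and Dmp1KO/Fgf23cKO was 1.35 lower than Dmp1KO (SE 0.10, adjusted p = 8.42e-08). In cells thinned to 1300 UMIs, which evens the depth, 4.89% of WT, 13.3% of Fgf23cKO, 14.9% of Dmp1KO and 9.15% of Dmp1KO/Fgf23cKO macrophage-like cells had a Hist1h2ap UMI. Within the single cluster led by Lgals3, Gpnmb and Mmp12 it was at 88.8 ± 14.9, 211 ± 26.6, 198 ± 20.5 and 105 ± 22.3 CPM in the same order (SD, n = 3, 3, 2 and 3), so WT and Dmp1KO/Fgf23cKO lay within their spread there. Within the cluster led by Slc9a9 and Mrc1, which held 77.3% of Dmp1KO/Fgf23cKO and 17.9% of Dmp1KO cells, it was at 41.3 ± 15.7, 73.1 ± 18.0, 54.6 ± 1.17 and 61.8 ± 3.72 CPM, and Dmp1KO was below Dmp1KO/Fgf23cKO, against the order in the class as a whole. Within the cluster led by Lgals3, Atp6v0d2 and Mmp12 it was at 111 ± 23.8, 186 ± 22.2, 228 ± 8.42 and 141 ± 16.7 CPM, with Dmp1KO highest. All its 90-base stretches are shared with other H2A genes, so a change in a copy cannot be told apart from its own.

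The H4 genes Hist1h4d and Hist1h4i, both without such copies, moved in opposite directions. In macrophage-like cells Hist1h4d was at 13.1, 10.5 and 10.6 CPM in WT, 46.0, 41.8 and 51.5 CPM in Fgf23cKO, 22.4 and 24.4 CPM in Dmp1KO and 29.5, 27.7 and 30.6 CPM in Dmp1KO/Fgf23cKO. It rose in each knockout genotype against WT, by 2.04 (SE 0.10), 1.28 (SE 0.11) and 1.33 (SE 0.10) on the log2 scale, and no genotype overlapped another. Hist1h4i was at 40.5, 44.0 and 46.6 CPM in WT, 32.3, 29.6 and 29.8 CPM in Fgf23cKO, 16.6 and 16.2 CPM in Dmp1KO and 22.7, 24.2 and 21.1 CPM in Dmp1KO/Fgf23cKO. It fell by 0.55 (SE 0.08), by 1.21 (SE 0.08) and by 1.01 (SE 0.07), again without overlap between genotypes. Pooled over genotypes, Hist1h4i was at 36.4 CPM in the cluster led by Maf and Mrc1 and 20.3 CPM in that led by Slc9a9 and Mrc1. It was at 14.5 CPM in the cluster led by Mmp12 and Lpl and 44.3 CPM in that led by Lgals3, Gpnmb and Mmp12. These clusters held different shares of each genotype, and the values of this pair are not split by cluster here.

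Hist1h4d UMIs per Hist1h4i UMI, a ratio that does not depend on the total of the library, were 0.227 to 0.322 in WT macrophage-like cells and 1.14 to 1.73 in the 8 cultures of the other genotypes. In S-phase-like cells the ratio was 2.69 to 5.21 in WT and 11.3 to 21.6 in the others, and in stromal cells 0.183 to 0.298 in WT and 0.357 to 1.11 in the others, and WT cultures did not overlap the others in these 3 classes. In G2/M-like cells they did, with 1.24 to 1.78 in WT and 1.37 to 10.9 in the others. In S-phase-like cells Hist1h4d was 1.59 (SE 0.15), 0.99 (SE 0.16) and 1.09 (SE 0.15) higher on the log2 scale against WT, and Hist1h4i 0.89 (SE 0.19), 0.82 (SE 0.19) and 0.78 (SE 0.20) lower. The WT reaction was also the shallowest per cell, and genotype, reaction and depth cannot be told apart here.

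**Figure D5:**
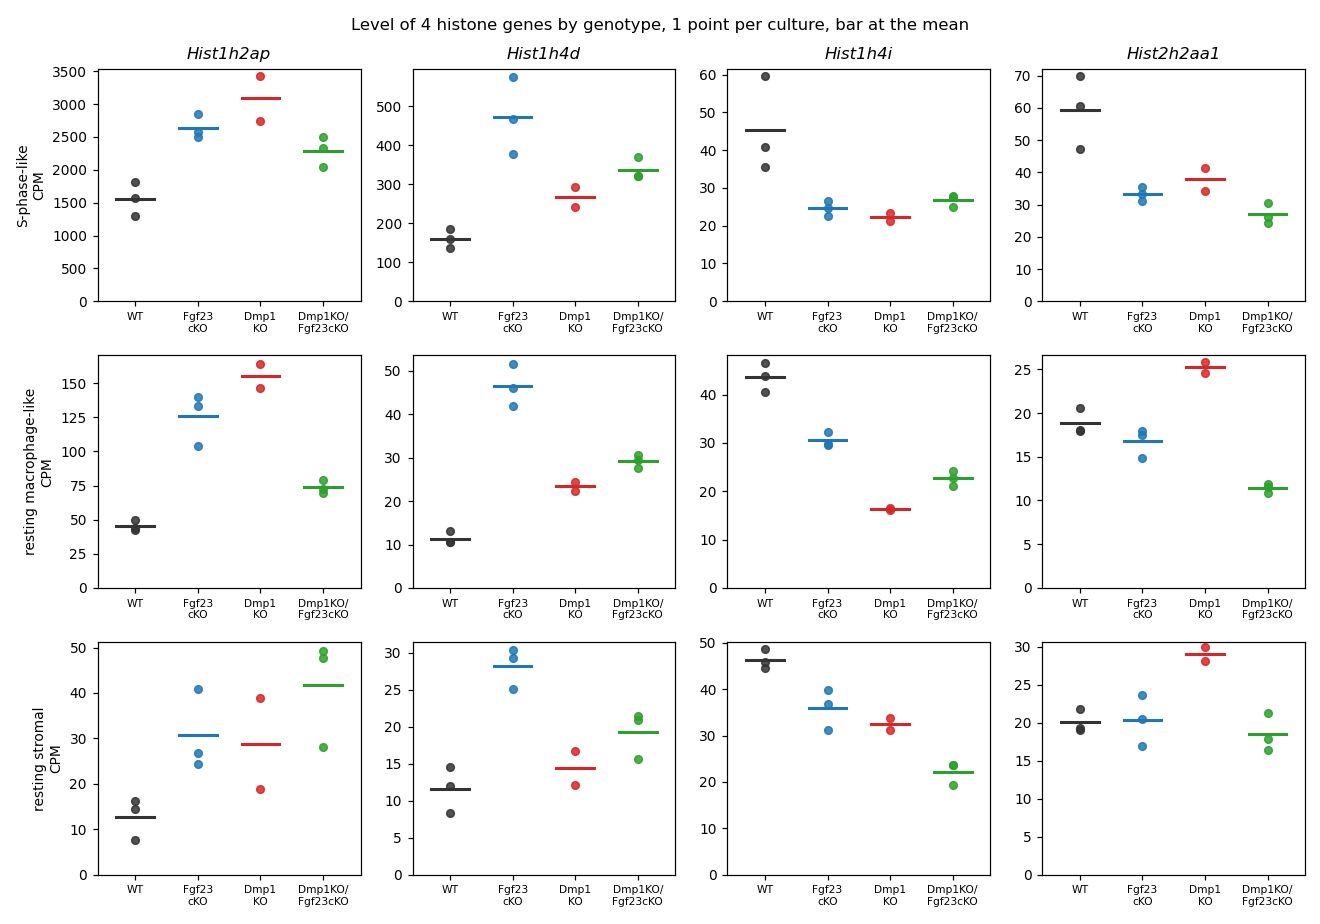
Level in CPM (y axes, from 0) of Hist1h2ap, Hist1h4d, Hist1h4i and Hist2h2aa1 (columns) in S-phase-like, resting macrophage-like and resting stromal cells (rows) by genotype (x axes), 1 point per culture with a bar at the mean. Hist1h2ap and Hist1h4d are lowest in WT in the upper rows, Hist1h4i is highest in WT in each row, and Hist2h2aa1 in macrophage-like cells is highest in Dmp1KO.

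Other members separated Dmp1KO from Dmp1KO/Fgf23cKO in macrophage-like cells. Hist2h2aa1 was at 18.1, 17.9 and 20.5 CPM in WT, 17.5, 14.9 and 18.0 CPM in Fgf23cKO, 25.8 and 24.6 CPM in Dmp1KO and 10.8, 11.6 and 11.9 CPM in Dmp1KO/Fgf23cKO. It was 0.63 higher (SE 0.09, adjusted p = 3.23e-05) in Dmp1KO and 0.79 lower (SE 0.10, adjusted p = 1.26e-05) in Dmp1KO/Fgf23cKO against WT on the log2 scale, and 1.42 lower (SE 0.09) in Dmp1KO/Fgf23cKO than in Dmp1KO. Within the cluster led by Slc9a9 and Mrc1 its means were 11.3, 11.5, 10.5 and 9.38 CPM over the 4 genotypes, within the spread of the cultures, with 6 UMIs of it in WT cells there. Hist1h2ae was 0.44 higher in Dmp1KO and 0.89 lower in Dmp1KO/Fgf23cKO against WT. Hist2h3c1 was 1.21 lower in Dmp1KO against WT (SE 0.17), and with a log2 fold change of 0.00 (adjusted p = 0.998) in Dmp1KO/Fgf23cKO.

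Of the linker genes in macrophage-like cells, Hist1h1e was called higher in each knockout genotype (log2 fold changes 0.65, 0.45 and 0.30 against WT). Hist1h1b was 1.11 higher in Fgf23cKO (SE 0.12, adjusted p = 6.2e-06) and 0.39 higher in Dmp1KO, with -0.18 (adjusted p = 0.252) in Dmp1KO/Fgf23cKO. Hist1h1c was 0.46 and 0.53 higher in Fgf23cKO and Dmp1KO/Fgf23cKO, with 0.17 (adjusted p = 0.149) in Dmp1KO. Hist1h2bc was 0.49 higher in Fgf23cKO (SE 0.08) and 0.39 in Dmp1KO (SE 0.08), with 0.13 (adjusted p = 0.167) in Dmp1KO/Fgf23cKO. The direction of Hist1h2bc in Dmp1KO against WT differed between clusters. In the cluster led by Lgals3, Gpnmb and Mmp12 it was lower, at 260 ± 56.1 against 337 ± 29.4 CPM. In that led by Lgals3, Atp6v0d2 and Mmp12 it was at 403 ± 0.512 against 657 ± 21.1 CPM (SD, n = 2 and 3). It was higher on average in that led by Slc9a9 and Mrc1, at 104 ± 5.05 against 79.7 ± 21.5 CPM, with overlap between cultures. In that led by S100a4 and C1qa, Dmp1KO was at 134 and 148 CPM and WT at 114 to 130 CPM. Both Dmp1KO cultures were also above all WT cultures in that led by Cd74. In that led by Maf and Mrc1, Dmp1KO (131 and 218 CPM) lay on both sides of WT (159 to 180 CPM). The H2A gene Hist2h2ac rose by 1.19, 1.15 and 0.32 against WT, and the H3 gene Hist1h3e rose by 1.42 and 1.15 in Fgf23cKO and Dmp1KO. Lower in all 3 were Hist1h2ao, Hist1h2br, Hist1h3d, Hist1h3i and Hist1h4i, with log2 fold changes of -0.87, -1.36 and -2.14 for Hist1h2ao and -0.53, -1.71 and -1.37 for Hist1h3i.

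Resting stromal cells are the class that includes the osteoblast lineage, where Dmp1-cre acts, whereas the Dmp1 knockout is global. Of 21 tested members, 4 rose and none fell in Fgf23cKO, 2 rose and 1 fell in Dmp1KO, 2 rose and 2 fell in Dmp1KO/Fgf23cKO against WT, and 2 were lower in Dmp1KO/Fgf23cKO than in Dmp1KO. Called members were 19, 14.3, 19 and 9.52% of those tested, against 16.9, 26.4, 22.1 and 11.4% of all 12324 genes, with 42 to 133 stromal cells per culture. The share was thus above that of all genes for Fgf23cKO and below it for the other comparisons, and the difference in shares was not tested. The make-up of the class differed: the cluster led by S100a6 and Cald1 held 29.97% of WT and 57.6% of Dmp1KO cells, and that led by Ibsp and Col1a1 held 32.0% of WT and 3.03% of Dmp1KO cells. Summed levels were 825 ± 68.4 CPM in WT, 879 ± 51.6 in Fgf23cKO, 871 ± 43.6 in Dmp1KO and 820 ± 100.2 in Dmp1KO/Fgf23cKO, within the spread of the cultures. Hist1h2bc, the main residual histone gene of these cells, was at 420, 331 and 418 CPM in WT, 445, 474 and 385 CPM in Fgf23cKO, 457 and 487 CPM in Dmp1KO and 450, 392 and 356 CPM in Dmp1KO/Fgf23cKO, and no comparison called it (adjusted p 0.321 in Dmp1KO, 0.527 in Fgf23cKO and 0.931 in Dmp1KO/Fgf23cKO against WT).

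Hist1h2ap was the member called in all 3 comparisons with WT. It was at 16.3, 14.5 and 7.56 CPM in WT, 26.8, 24.3 and 40.9 CPM in Fgf23cKO, 18.9 and 38.8 CPM in Dmp1KO and 49.1, 28.2 and 47.6 CPM in Dmp1KO/Fgf23cKO, with WT lowest. The log2 fold changes were 1.31 (SE 0.38, adjusted p = 0.0495), 1.25 (SE 0.42, adjusted p = 0.0562) and 1.72 (SE 0.37, adjusted p = 0.0102). Macrophage markers summed to 3616 to 10320 CPM in these stromal cells, Hist1h2ap was higher in macrophage-like cells, and the part of that RNA was not tested. Hist1h4d was 1.35 higher in Fgf23cKO (SE 0.23) and 0.73 in Dmp1KO/Fgf23cKO (SE 0.23), and Hist1h4i 0.56 lower in Dmp1KO (SE 0.16) and 1.10 lower in Dmp1KO/Fgf23cKO (SE 0.14). Within the cluster led by Col1a2 and Sparc the direction of Hist1h4i in Dmp1KO turned, with 32.8 ± 2.18 CPM against 24.0 ± 8.401 in WT, and Dmp1KO/Fgf23cKO was at 21.1 ± 3.47 CPM. Hist1h4h was 1.13 lower in Dmp1KO/Fgf23cKO (SE 0.30, adjusted p = 0.0252). Hist1h1b and Hist1h1e were 1.18 and 0.60 higher in Fgf23cKO.

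Last, the step from rest to S phase was compared between genotypes in 1 fit over both classes. The cycling cluster that gave 185 of the 249 Dmp1KO S-phase-like cells was led by Spp1 and Lpl. Another cluster led by Spp1 and Lpl, unnamed and not classed as cycling, entered neither class. It held 839 cells, untagged cells included, of which 759 were Dmp1KO. The Dmp1KO step thus lacks these cells on the resting side, and their effect on it was not tested. Of 62 tested members, none differed in Fgf23cKO against WT at an adjusted p under 0.1 (10 at an unadjusted p under 0.05), 6 had a smaller step in Dmp1KO, 1 had a larger step in Dmp1KO/Fgf23cKO, and 8 had a larger step in Dmp1KO/Fgf23cKO than in Dmp1KO. Over all 12883 genes, 0.0233, 2.62, 0.450 and 4.28% were called. In Dmp1KO the 6 members were Hist1h1d, Hist2h2ac, Hist2h2aa1, Hist1h2bg, Hist1h2ae and Hist1h2ap. Members that missed the threshold are not shown to have equal steps, since S-phase-like sums rest on as few as 15 cells.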

How the data were processed

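Single-cell counts of 15 of 16 samples were analysed, and Dmp1KO replicate 1 was not used here. The values are raw UMI counts per gene and cell, deposited by the authors after Cell Ranger 7.0.1 on mm10, with barcodes assigned to cultures by tags. The samples numbered 4 held untagged cells and entered no main comparison. No further cell filter or doublet caller was applied here, so doublets within a culture remain.

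Cells were clustered in Seurat 5.3.0 with sctransform 0.4.2 (R 4.3.3), on 30 components at resolution 0.8 without 107 histone-related genes, which gave 21 clusters. Counts were summed per culture and class (at least 10 cells) and tested with edgeR 4.0.16 (quasi-likelihood, TMM, low-count filter, Benjamini-Hochberg adjusted p under 0.1 over all genes), with the culture as a block between classes. The script was tested on simulated data. The tests measure the spread between 11 cultures, 2 or 3 per genotype, and shares of cells are given without a measure of that spread.

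Named were all linker genes with UMIs, the 4 members with most UMIs per core family, the extremes of each class comparison, the largest genotype changes, and the 3 largest changes per pathway list. Others were named after their values were seen. The members and lists were chosen with earlier results of these data known. Alternatives were RLE scaling, DESeq2 1.42.0, filters, thresholds, blocks, clustering, phase calls and left-out cultures.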

Additional observations from a re-analysis of the deposited data

Results flagged for a closer look

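For 15 values, the change from rest to S phase in macrophage-like cells differed between genotypes by the test of the difference itself (edgeR quasi-likelihood, adjusted p under 0.1). In Dmp1KO against WT the difference of log2 fold changes was -1.22 for Hist1h1d (SE 0.20, adjusted p = 0.00151), -1.16 for Hist2h2ac, -0.96 for Hist2h2aa1, -0.96 for Hist1h2bg, -0.78 for Hist1h2ae and -0.68 for Hist1h2ap, so each rose less. In Dmp1KO/Fgf23cKO against WT it was 0.81 for Hist1h1b (SE 0.17, adjusted p = 0.0497). In Dmp1KO/Fgf23cKO against Dmp1KO it was 1.501 for Hist1h3c, 0.95 for Hist1h2ae (SE 0.17, adjusted p = 0.00331), 0.92 for Hist1h2ab, 0.75 for Hist1h2an, 0.72 for Hist1h3e, 0.71 for Hist2h2ac, 0.61 for Hist1h2ap and 0.51 for Hist1h1b. The last 2 comparisons share the Dmp1KO/Fgf23cKO cultures, and most Dmp1KO S-phase-like cells came from a cluster of their own. The unnamed cluster with the same leading genes, Spp1 and Lpl, was not among the resting cells.

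The untagged cells, which entered no comparison, also held histone RNA. Their summed level in resting macrophage-like cells was 776 CPM in WT (253 cells), 908 CPM in Fgf23cKO (589 cells), 859 CPM in Dmp1KO (356 cells) and 686 CPM in Dmp1KO/Fgf23cKO (106 cells), 1 sample each and without a test.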

How the results depend on the processing

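Counts below are of histone genes past the threshold. Over the other settings tried, left-out cultures aside, 176 of the main counts and ratios stayed within the limits set for them and 26 moved. At an adjusted p under 0.05, 15 were called in macrophage-like cells of Fgf23cKO against WT, 3 in S-phase-like cells of Dmp1KO/Fgf23cKO against Dmp1KO, 2, 1 and 0 in stromal cells (Fgf23cKO and Dmp1KO against WT, Dmp1KO/Fgf23cKO against Dmp1KO), and 4 S-phase steps differed between Dmp1KO/Fgf23cKO and Dmp1KO. Without a filter on low counts, 40 were called between stromal and macrophage-like cells, Hist1h4i turned to -0.0053, 0 were called in stromal cells between Dmp1KO/Fgf23cKO and Dmp1KO, and 3, 10 and 3 S-phase steps differed from WT in Fgf23cKO, Dmp1KO and Dmp1KO/Fgf23cKO. RLE scaling gave 1 differing step in Fgf23cKO. Between Dmp1KO/Fgf23cKO and Dmp1KO, DESeq2 called 4 in S-phase-like and 0 in stromal cells, and at least 20 cells per sum left 3 in S-phase-like cells. In stromal cells of Fgf23cKO, including the samples numbered 4 gave 1. Clustering at resolution 0.4 gave 2, 1 and 1 in stromal cells of Fgf23cKO, Dmp1KO and between Dmp1KO/Fgf23cKO and Dmp1KO. Phases called on thinned cells gave summed ratios to resting macrophage-like cells of 7.15 (S-phase-like) and 3.43 (G2/M-like), and thinning gave shares of cells with a histone UMI of 89.9, 69.1, 58.7 and 59.5%. The cause of these changes was not tested.

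Chosen after seeing the data, no limit on the cycle lists gave 2 in stromal cells of Fgf23cKO and 2 of Dmp1KO/Fgf23cKO against WT. Without the cycling cluster held mostly by Dmp1KO, 21 were called in S-phase-like cells of Dmp1KO and 0 between Dmp1KO/Fgf23cKO and Dmp1KO, and 2 and 14 steps differed in Fgf23cKO against WT and Dmp1KO/Fgf23cKO against Dmp1KO.

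Leaving out each culture gave 51 to 53 between S-phase-like and macrophage-like cells, 36 to 43 for G2/M-like, 39 to 41 between the phases and 21 to 26 for stromal cells. For Fgf23cKO, Dmp1KO and Dmp1KO/Fgf23cKO against WT and Dmp1KO/Fgf23cKO against Dmp1KO, it gave 14 to 24, 21 to 26, 21 to 26 and 15 to 23 in macrophage-like cells, 21 to 27, 20 to 37, 26 to 34 and 2 to 9 in S-phase-like cells, 1 to 5, 0 to 3, 3 to 6 and 0 to 4 in stromal cells, and 0 to 2, 2 to 7, 0 to 1 and 0 to 9 differing steps. Macrophage-like Fgf23cKO fell to 14 without Fgf23cKO replicate 3, and S-phase-like Dmp1KO to 20 without Dmp1KO replicate 2. S-phase-like Dmp1KO/Fgf23cKO against Dmp1KO fell to 2 without Dmp1KO replicate 3, 3 without Dmp1KO/Fgf23cKO replicate 3 and 4 without WT replicate 3 or Dmp1KO/Fgf23cKO replicate 2. Stromal Fgf23cKO fell to 1 without WT replicate 3 or Fgf23cKO replicate 3 and 2 without WT replicate 1, and stromal Dmp1KO to 0 without Dmp1KO replicate 3 and 1 without WT replicate 3 or Dmp1KO replicate 2. Stromal Dmp1KO/Fgf23cKO against Dmp1KO gave 0 without either Dmp1KO culture or Dmp1KO/Fgf23cKO replicate 2 or 3, 1 without WT replicate 2 or 3 and 4 without Dmp1KO/Fgf23cKO replicate 1. Differing steps in Dmp1KO fell to 2 without Dmp1KO replicate 2 and 3 without WT replicate 3, and those between Dmp1KO/Fgf23cKO and Dmp1KO to 0 without Dmp1KO replicate 2, 5 without Dmp1KO replicate 3 and 4 without Dmp1KO/Fgf23cKO replicate 1 or 2. The differing step in Dmp1KO/Fgf23cKO against WT was lost without WT replicate 2 or 3 or Dmp1KO/Fgf23cKO replicate 1. The summed ratios stayed at 8.55 to 8.87, 2.32 to 2.54 and 1.02 to 1.07.

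Same-numbered cultures were not treated as pairs. After removal of genotype means, 3, 0 and 1 of 15 pairs of same-numbered cultures correlated over 0.1 in macrophage-like, S-phase-like and stromal cells. The values ran from -0.545 to 0.272 in macrophage-like cells. With 2 or 3 cultures per genotype, this check cannot show whether same-numbered cultures shared a preparation. With the replicate block, 2 members were called in stromal cells of Fgf23cKO, and the other counts stayed within 1.5 times.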
